A study of Homo sapiens with 6 samples.

Results

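The genes of the TNF receptor and TNF ligand superfamilies were examined in the RNA of HCT116 cells, an established line of human colorectal cancer. The members were the protein-coding genes whose symbols start with TNFRSF or TNFSF followed by a number. The rule took 33 of the 58395 genes listed, 21 receptors and 12 ligands. HCT116 cells that carried a lentiviral non-target hairpin (shControl, 3 biological replicates) were compared with cells that carried a lentiviral hairpin against STBD1 (shSTBD1, 3 biological replicates), all cultured in DMEM with fetal bovine serum. STBD1 is a glycogen-binding protein that links glycogen to autophagy, and the comparison addresses what lowering it does to the RNA of these cells. The methods list a single hairpin sequence for each group. Effects of the hairpin itself and of lower STBD1 cannot be told apart. A hairpin lowers an RNA without removing its gene, and all libraries came from the same cell line. The labels do not say that the replicates were separate infections, so the p-values measure the spread between these libraries only.

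TNF ligands are mostly trimeric proteins of the cell surface, which proteases can release, and they act by clustering receptors on the same or another cell. Receptors with a cytoplasmic death domain can recruit adaptors and caspases and start cell death, while most others bind TRAF proteins and lead to NF-kappaB and MAP kinase activity. Decoy receptors bind the ligands without passing the signal on. Epithelial cells of the colon are known for receptors of TNF and TRAIL, while many of the ligands and costimulatory receptors are made mainly by leukocytes.

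Depth was close among the libraries, from 17689097 to 21668274 expected counts each. STBD1 itself was at 16.2, 15.7 and 14.4 CPM (counts scaled to a common library total) in shControl and at 11.6, 9.06 and 9.18 CPM in shSTBD1. Every shSTBD1 library lay below every shControl library, and the log2 fold change was -0.64 (SE 0.098, edgeR adjusted p = 0.00029). With limma on log2(TPM + 1) and log2(TPM + 0.1) the adjusted p was 0.0646 and 0.0672. The RNA of STBD1 fell by 35.8%, so most of that RNA remained in the shSTBD1 libraries. The posterior standard deviation of the STBD1 count was 8.37% of the count. The study judged the knockdown by immunoblot of the protein, which RNA counts do not measure. The library shControl 1 stood apart from its replicates, with a chi-square per degree of freedom of 6.20 and 4.93 against replicates 2 and 3, which differed from each other by 1.65. Of the colon epithelial markers, EPCAM was at 169 to 183 TPM and KRT8 at 1228 to 1485 TPM, while VIL1 reached at most 0.21 TPM and CDH17 at most 0.06 TPM. Of 10 leukocyte markers, 4 were listed at 0 in every library (PTPRC, CD3E, MS4A1 and NKG7), and the highest, FCER1G, averaged 0.878 TPM. In bulk RNA, fewer cells with a transcript and less of the transcript per cell cannot be told apart.

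Of the 33 members, 17 were expressed, which means a mean of at least 0.5 TPM (a level per length of transcript, scaled to a common total) over the 6 libraries. They were 14 of 21 receptors and 3 of 12 ligands (TNFSF9, TNFSF12 and TNFSF13). TNFRSF12A, the receptor of the ligand TWEAK, had the highest level, with 103, 125 and 123 TPM in shControl and 123, 125 and 122 TPM in shSTBD1. It was followed by TNFRSF10B, a death receptor for TRAIL, with a mean of 76.5 TPM, and by TNFRSF1A, the widely expressed death-domain receptor of TNF, with 59.9 TPM. The ranges of these top 3 genes over the 6 libraries did not overlap, nor did that of TNFRSF1A overlap that of TNFRSF6B, a soluble decoy, at 31.7 TPM.

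From TNFRSF6B down to TNFRSF10A at 21.0 TPM, each of the 7 genes in the order overlapped its neighbour. In between stood TNFRSF25, a death-domain receptor first known from lymphocytes, at 28.6 TPM and TNFRSF18, a costimulatory receptor of T cells, at 27.7 TPM. TNFRSF21, a death-domain receptor known from neurons and lymphocytes, was at 26.1 TPM, and the TRAIL decoy TNFRSF10D at 24.6 TPM. TNFSF9, the ligand of TNFRSF9, was the highest ligand with 23.8 TPM. Below them the level dropped to 8.65 TPM for TNFSF12, which encodes TWEAK, and to 3.15 TPM for the TRAIL decoy TNFRSF10C, both drops without overlap. TNFRSF9, a costimulatory receptor, averaged 1.95 TPM, and TNFRSF13C, a receptor of the B cell factor BAFF, 1.28 TPM. TNFRSF11A, the receptor RANK of bone and mammary cells, was at 1.26 TPM, and the ligand TNFSF13, known as APRIL, at 1.20 TPM. In all, 10 members lay above 20 TPM, 7 lay under 10 TPM, and 11 of the 16 pairs of neighbours in the order overlapped. The lowest member inside the threshold was TNFRSF19, with 0.702 TPM, and the highest outside it was the read-through gene TNFSF12-TNFSF13, with 0.480 TPM, then TNFSF4 with 0.303 TPM.

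**Figure D1:**
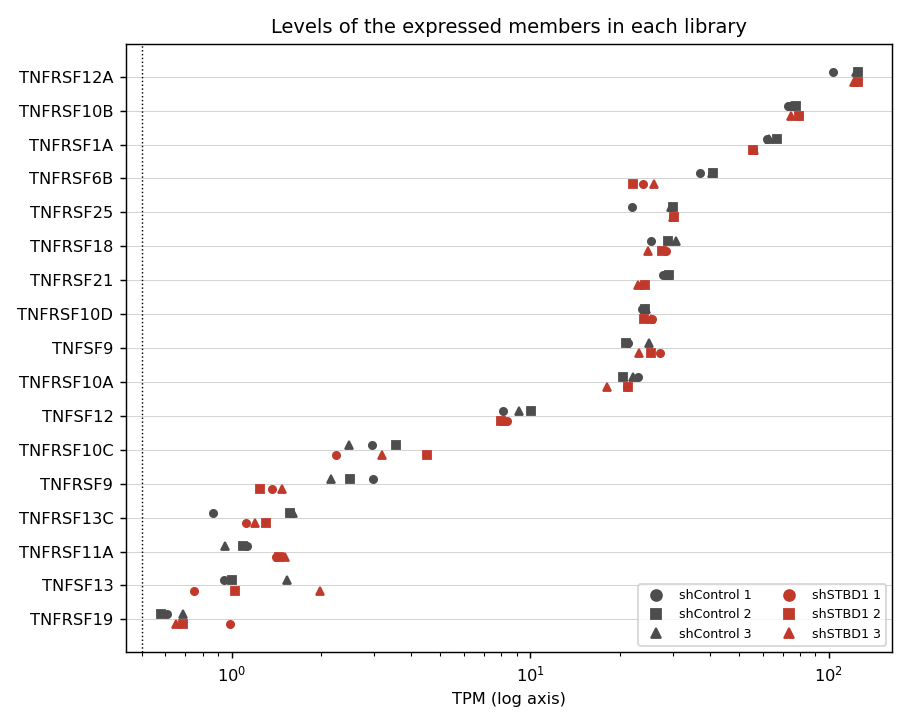
TPM of the 17 expressed members in each of the 6 libraries, on a log axis, ordered by their mean, with shControl in grey, shSTBD1 in red and the replicate number given by the shape. The dotted line is the threshold of 0.5 TPM, and the points run from TNFRSF12A at a mean of 120 TPM to TNFRSF19 at 0.702 TPM.

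The other 16 members, 7 receptors and 9 ligands, were below the threshold. TNFSF8, TNFSF11, TNFRSF11B and TNFRSF13B had 0 counts in every library. A count of 3, the limit that a count of 0 allows, corresponds to 0.138 to 0.170 CPM in a library, for counting error only. TNFSF10, which encodes TRAIL, had at most 1 count in a library and a mean of 0.0217 TPM, while its 4 surface receptors TNFRSF10A, TNFRSF10B, TNFRSF10C and TNFRSF10D were all expressed. Of 27 textbook pairs of receptor and ligand, both sides were expressed in 2, namely TNFRSF9 with TNFSF9 and TNFRSF12A with TNFSF12. The pairs covered 12 expressed receptors, of which 10 had no expressed ligand. Those 10 include TNFRSF1A, whose ligand TNF had 1 count in shSTBD1 1 and 0 in every other library. LTA, the other listed ligand of TNFRSF1A, averaged 0.085 TPM. The 10 also include TNFRSF6B, whose ligands FASLG, TNFSF14 and TNFSF15 averaged 0, 0.005 and 0.01 TPM.

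For 20 members, the 17 expressed ones and TNFSF12-TNFSF13, TNFSF4 and TNFRSF1B, counts were high enough for the test of the hairpin. The test was edgeR's quasi-likelihood F-test, with p-values adjusted by the Benjamini-Hochberg method over 15566 genes. TNFRSF6B, TNFRSF9 and TNFRSF21 fell in shSTBD1 and TNFRSF11A rose, at an adjusted p under 0.05, which makes 3 lower and 1 higher. The same call took 15.8% of all genes tested, with 8.22% higher and 7.54% lower. The members' 4 of 20 is thus a share near the background. The methods of the study set a cut of p under 1e-05 on DESeq2 results, together with a condition on the fold change of TPM. With that cut on the unadjusted edgeR p alone, 3 of the 20 members passed, against 2.38% of all genes. Those 3 are the ones that fell.

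The median log2 fold change of the 20 members was -0.01, with 10 above 0 and 10 below, beside 0.0023 for all genes tested. The median size of the change was 0.18, beside 0.11 for all genes. The members were also lower in level, with a median of 14.3 CPM beside 22.6 CPM for all genes tested. The part of level in the size of the change was not tested. The groups did not overlap in CPM in 11 of the 20 members, beside 33.6% of all genes. A fold change of a single member cannot pass an exact permutation test here. The smallest two-sided p with 3 libraries against 3 is 0.1. Each of the 11 members without overlap reached it, the 4 called members among them, so it does not set those 4 apart.

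**Figure D2:**
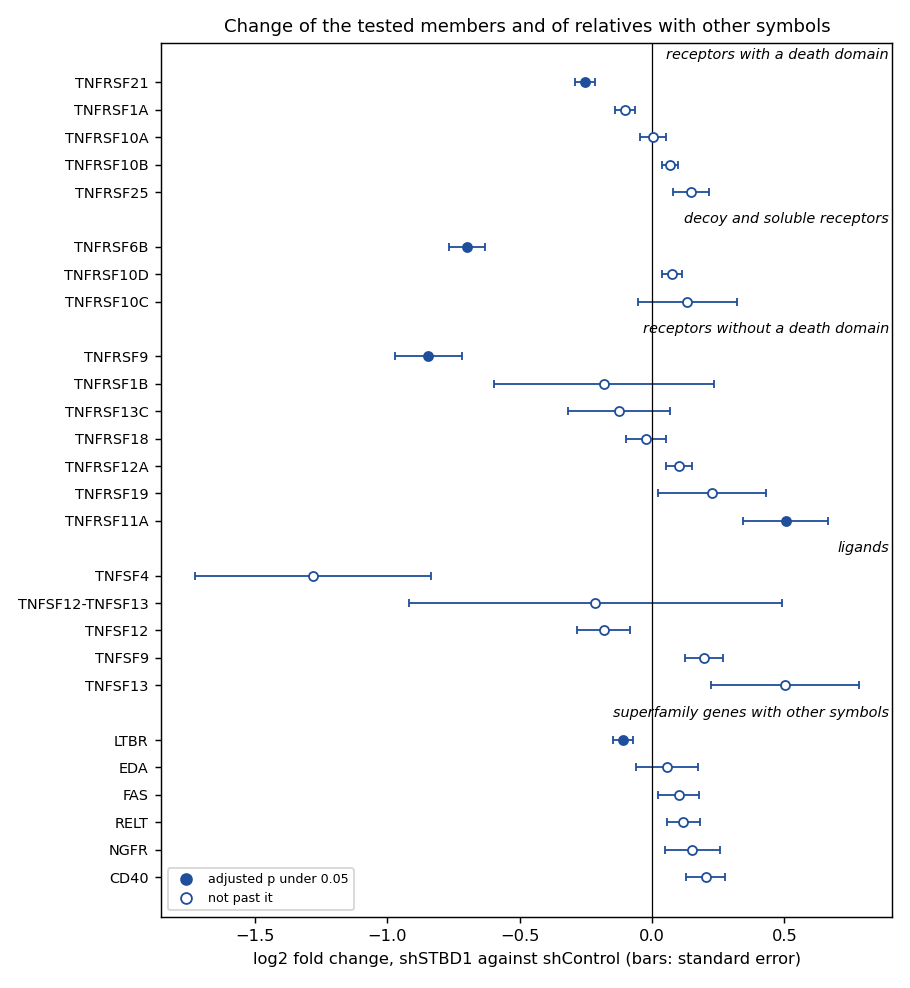
Log2 fold change of shSTBD1 against shControl for the 20 members tested and 6 relatives with other symbols, grouped by role, with bars of 1 standard error and filled points at an adjusted p under 0.05. Filled points among the members are TNFRSF21 at -0.25, TNFRSF6B at -0.70, TNFRSF9 at -0.85 and TNFRSF11A at 0.50.

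All 5 receptors with a death domain were expressed, and 1 of them fell. TNFRSF21 lies on chromosome 6 of GRCh38 from 47231532 to 47309905, on the reverse strand. Its level was 82.8, 82.7 and 83.6 CPM in shControl and 69.1, 71.8 and 67.9 CPM in shSTBD1. The shControl libraries were within 1 CPM of each other, and all shSTBD1 libraries lay below them. The mean went from 83.0 ± 0.496 to 69.6 ± 2.02 CPM (SD, n = 3 each), and the fitted level fell by 16.1%, with a log2 fold change of -0.25 (SE 0.038, edgeR adjusted p = 0.000243). With limma on log2(TPM + 1) the adjusted p was 0.0519.

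The other 4 did not pass. TNFRSF1A, which carries most of the response to soluble TNF, was at 86.0, 84.9 and 87.0 CPM in shControl and 78.1, 81.2 and 80.8 CPM in shSTBD1. Its groups did not overlap, but the log2 fold change of -0.10 (SE 0.036) had an edgeR adjusted p of 0.0675. TNFRSF10B was at 179, 182 and 182 CPM in shControl and 189, 191 and 189 CPM in shSTBD1, without overlap, at a log2 fold change of 0.07 (edgeR adjusted p = 0.143). The other TRAIL death receptor, TNFRSF10A, was at 39.6 to 41.7 CPM in shControl and 39.3 to 41.8 CPM in shSTBD1, groups that overlapped almost wholly. TNFRSF25 had 28.6, 34.8 and 35.5 CPM in shControl and 36.5, 36.8 and 36.1 CPM in shSTBD1. The low value was that of shControl 1, and the log2 fold change of 0.15 (edgeR adjusted p = 0.16) was 0.053 without that library (adjusted p = 0.586).

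Of the 4 decoy and soluble receptors 3 were tested, and 1 fell. TNFRSF6B encodes decoy receptor 3, a protein with no membrane anchor that binds FAS ligand and its relatives, and it lies on chromosome 20 from 63696652 to 63698684, on the forward strand. It had 28.8, 30.3 and 30.4 CPM in shControl and 18.0, 17.0 and 20.1 CPM in shSTBD1. All shSTBD1 libraries lay far below all shControl libraries. The mean went from 29.8 ± 0.868 to 18.4 ± 1.56 CPM (SD, n = 3 each), and the fitted level fell by 38.5%, with a log2 fold change of -0.70 (SE 0.067, edgeR adjusted p = 2.36e-06). It was the only member past the threshold in each of the 16 alternatives that kept the genes apart, with adjusted p-values up to 0.0114.

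TNFRSF6B lies inside the span of a read-through gene, RTEL1-TNFRSF6B, so reads of its exons can belong to either, and RSEM divides them. The posterior standard deviation of its count was 3.14% of the count. RTEL1-TNFRSF6B had 56.9, 56.9 and 59.0 CPM in shControl and 53.2, 56.8 and 52.2 CPM in shSTBD1, with a log2 fold change of -0.09 (edgeR adjusted p = 0.205). RTEL1, the helicase gene just before it, had a log2 fold change of -0.12 (adjusted p = 0.149). When the counts of TNFRSF6B and the read-through gene were summed, the log2 fold change was -0.27 (SE 0.037, edgeR adjusted p = 0.000112). The direction held in the sum, at a smaller size than for TNFRSF6B alone.

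**Figure D3:**
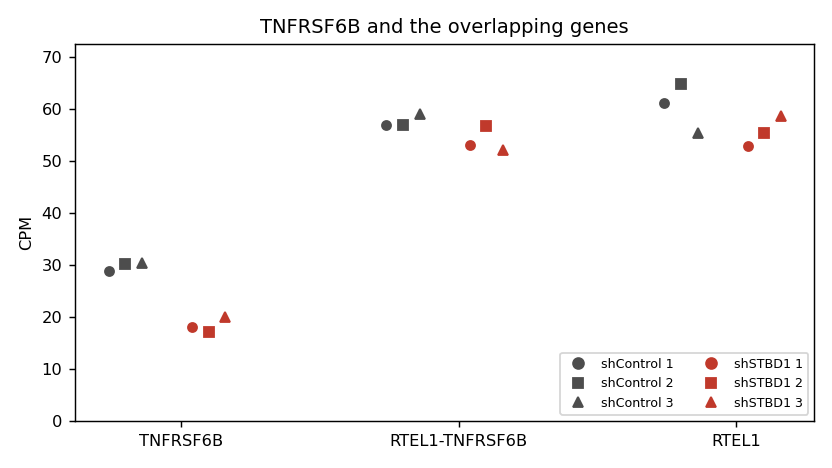
CPM of TNFRSF6B, the read-through gene RTEL1-TNFRSF6B and RTEL1 in each library, with shControl in grey and shSTBD1 in red. TNFRSF6B separates the groups widely, at 28.8 to 30.4 CPM against 17.0 to 20.1 CPM. RTEL1-TNFRSF6B lies between 52.2 and 59.0 CPM in all 6 libraries. Its groups only just separate, with 56.85 CPM as the lowest shControl and 56.83 CPM as the highest shSTBD1 value.

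The TRAIL decoys did not pass. TNFRSF10D, with a truncated death domain, was at 67.7 to 69.4 CPM in shControl and 70.4 to 73.9 CPM in shSTBD1 (log2 fold change 0.08, edgeR adjusted p = 0.211). TNFRSF10C, held to the membrane by a lipid anchor, was at 2.65 to 3.69 CPM and 2.84 to 4.14 CPM (log2 fold change 0.13, edgeR adjusted p = 0.687). TNFRSF11B, the soluble receptor osteoprotegerin, was the decoy with no count.

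Of the 12 receptors without a death domain, which signal mainly through TRAF proteins, 6 were expressed and 7 tested. TNFRSF9, also called CD137, lies on chromosome 1 from 7915871 to 7943165, on the reverse strand. It had 131, 149 and 135 counts in shControl and 78, 87 and 74 counts in shSTBD1, or 6.80 to 7.62 CPM and 3.73 to 4.27 CPM. The groups were far apart against their spread. The mean went from 7.19 ± 0.412 to 3.999 ± 0.267 CPM (SD, n = 3 each), and the fitted level fell by 44.3%, with a log2 fold change of -0.85 (SE 0.13, edgeR adjusted p = 0.000243). With limma on log2(TPM + 1) the log2 fold change was -0.58 and the adjusted p 0.0548. Its ligand TNFSF9, the partner in one of the pairs expressed on both sides, did not pass the test and had a log2 fold change of the opposite sign.

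TNFRSF11A, whose signal drives the formation of osteoclasts, lies on chromosome 18 from 62325287 to 62391288, on the forward strand. It was at 3.58, 3.98 and 2.82 CPM in shControl and 5.52, 4.46 and 4.89 CPM in shSTBD1. The groups did not overlap, although the highest shControl and the lowest shSTBD1 library were close, and a library held only 50 to 101 counts. The mean went from 3.46 ± 0.586 to 4.96 ± 0.535 CPM (SD, n = 3 each), and the fitted level rose by 41.9%, with a log2 fold change of 0.50 (SE 0.16, edgeR adjusted p = 0.0434). This call rested on the choice of method and on single libraries. The adjusted p was 0.0875 with DESeq2 and 0.155 with offsets for effective length. Without shControl 1 it was 0.0547, without shControl 3 it was 0.153, and without shSTBD1 1, 2 or 3 it was 0.161, 0.0618 and 0.1.

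**Figure D4:**
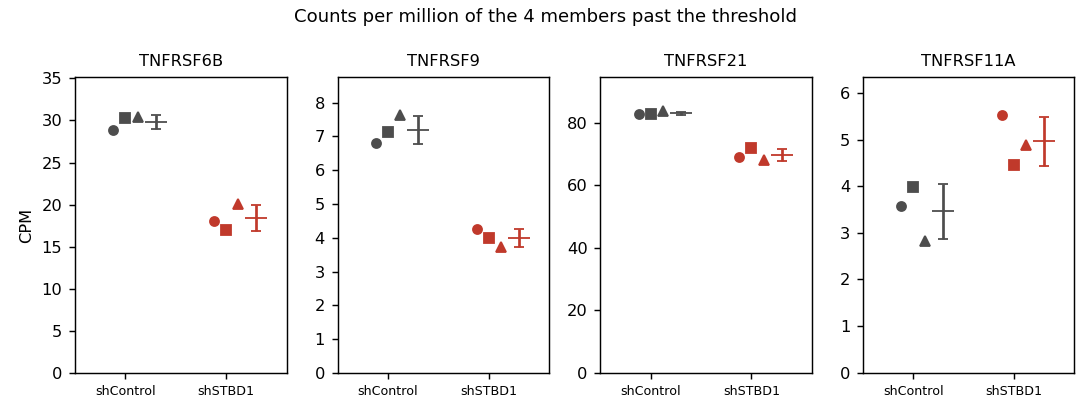
CPM of TNFRSF6B, TNFRSF9, TNFRSF21 and TNFRSF11A in each library, on axes that start at 0, with the mean and standard deviation of each group of 3 beside the points. In TNFRSF6B, TNFRSF9 and TNFRSF21 the shSTBD1 points lie below the shControl points, and in TNFRSF11A above them, where 4.46 and 3.98 CPM are the nearest points.

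The other receptors of this class did not pass. TNFRSF12A was at 70.7, 81.7 and 81.2 CPM in shControl and 82.4, 84.6 and 83.6 CPM in shSTBD1. Again shControl 1 was the low library, and the log2 fold change of 0.10 (edgeR adjusted p = 0.174) was 0.035 without it (adjusted p = 0.598). TNFRSF18 was at 18.4 to 21.9 CPM and 18.6 to 20.6 CPM, so that the shSTBD1 range lay inside that of shControl. TNFRSF13C had a log2 fold change of -0.12 (edgeR adjusted p = 0.722), with 2.86 CPM in shControl 1 against 4.93 and 5.14 in the other shControl libraries. TNFRSF19, an orphan receptor of the developing skin and nervous system, had a log2 fold change of 0.23 (edgeR adjusted p = 0.498). TNFRSF1B, the TNF receptor of leukocytes, was tested at a mean under 1 CPM and had a log2 fold change of -0.18 (edgeR adjusted p = 0.821).

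Sequence of the promoter was read for the genes of the table of RefSeq promoters (GRCh38.p14, 250 bases before to 50 after the start), which held 12 of the 20 tested members. The windows were searched on both strands for the NF-kappaB consensus, the AP-1 motif TGANTCA and the GC box GGGCGG, since NF-kappaB and AP-1 are the factors that these receptors are known to act on. TNFRSF9, a called member, was the only one of the 12 with a match to both of the first motifs. The stretches around the matches are printed in the direction of the gene, with the motif in capitals and up to 10 bases on each side. The first lies at chr1:7940894-7940923 and the second at chr1:7940867-7940893, both on the reverse strand, with motifs that begin at bases -74 and -44 from the RefSeq start, which is inside the span of the gene given above.
TNFRSF9 NF-kappaB consensus: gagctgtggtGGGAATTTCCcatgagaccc
TNFRSF9 AP-1: cgcccctggcTGAGTCAccgcactcct
The first motif also matched on the opposite strand, shifted by 1 base, so that these matches overlap. TNFRSF25, a death-domain receptor that did not pass the test, held the other match to the NF-kappaB consensus, at chr1:6466124-6466147 on the reverse strand, beginning at base 37 of the transcript.
TNFRSF25 NF-kappaB consensus: gcacggagccGGGAAGCCCCtggg
The NF-kappaB consensus was thus in 2 of 12 members and in 11.3% of the 35116 windows of the table, and AP-1 in 1 of 12 and in 7.7%. The GC box was in 9 of 12 members and in 45.0% of all windows. TNFRSF6B, TNFRSF21 and TNFRSF11A held GC boxes (2, 1 and 4 matches) and no match to the other motifs. A match describes the letters of the window and is not evidence of binding.

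Of the 12 ligands, 5 were tested and 0 passed with edgeR or limma. With DESeq2 0 passed as well, but it gave no adjusted p for TNFSF13, TNFSF12-TNFSF13 and TNFSF4, which therefore could not pass. An unadjusted edgeR p under 0.05 was found in 2 of these 5, beside 4677 of all 15566 genes tested. TNFSF9, which is known to stimulate T cells through TNFRSF9, was at 26.6, 24.9 and 30.1 CPM in shControl and 33.0, 31.5 and 28.7 CPM in shSTBD1. The groups overlapped through shControl 3 and shSTBD1 3, and the log2 fold change was 0.19 (SE 0.072, edgeR adjusted p = 0.0767). Without shControl 3 it was 0.27 (adjusted p = 0.0243), and without a filter on low counts the adjusted p was 0.0272.

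TNFSF12 and TNFSF13 are neighbours on chromosome 17 and share the read-through gene TNFSF12-TNFSF13. TNFSF12 was at 8.57, 9.77 and 8.75 CPM in shControl and 7.82, 7.72 and 8.37 CPM in shSTBD1, just without overlap (log2 fold change -0.18, edgeR adjusted p = 0.238). TNFSF13 was at 0.935 to 1.52 CPM and 1.26 to 2.07 CPM (log2 fold change 0.50, SE 0.28, edgeR adjusted p = 0.245). Its count was uncertain by 17.5% and that of the read-through gene by 44.6%, which was 0 in shControl 3 and 0.66 in shSTBD1 3 but 15.9 to 25.8 in the other libraries. Summed over the 3 genes, the log2 fold change was -0.09 (SE 0.094, edgeR adjusted p = 0.562).

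TNFSF4, the ligand of the costimulatory receptor TNFRSF4, had 14, 30 and 16 counts in shControl and 12, 3 and 10 in shSTBD1. The groups did not overlap, and the log2 fold change of -1.28 (SE 0.45) had an edgeR adjusted p of 0.0624, which was 0.0197 without a filter on low counts and 0.0347 without shControl 1. TNFSF18, the ligand of TNFRSF18, had 12, 9 and 1 counts in shControl and 2, 1 and 0 in shSTBD1. It was tested only without the filter, where its adjusted p was 0.0242 and its groups overlapped. TNFSF4 and TNFSF18 are neighbours on chromosome 1, where 9 of the 33 members lie. These values of TNFSF4 and TNFSF18 were singled out after they were seen.

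The 15 superfamily genes whose symbols the rule leaves out were described in the same way. Of these, 7 were expressed, 6 were tested and 1 fell, LTBR, the receptor of lymphotoxin beta. A share of 1 in 6 is near the 15.8% of all genes tested that were called. LTBR was at 90.5, 89.9 and 91.3 CPM in shControl and 81.9, 85.9 and 83.8 CPM in shSTBD1, without overlap, and fell by 7.34% (log2 fold change -0.11, SE 0.036, edgeR adjusted p = 0.0485). The adjusted p was 0.118 with DESeq2, 0.0508 when a block for the replicate was fitted, and under 0.05 in only 1 of the 6 fits that left out a library. CD40, the receptor of the ligand of activated T cells, had the largest value of those that did not pass, at 0.20 (edgeR adjusted p = 0.0754), which was 0.27 without shSTBD1 3 (adjusted p = 0.0366). For FAS, the best known death receptor, the log2 fold change was 0.10 (edgeR adjusted p = 0.419). For RELT it was 0.12 (edgeR adjusted p = 0.217), for NGFR 0.15 (adjusted p = 0.353) and for the ligand EDA 0.06 (adjusted p = 0.801). Single libraries moved NGFR to 0.30 without shControl 3 (adjusted p = 0.0424) and to 0.048 without shControl 1 (adjusted p = 0.792). CD70, a ligand at 0.603 TPM, had too few counts to be tested.

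Of 40 genes that act next to the receptors, 38 were tested, of which 4 rose and 5 fell, a share of 9 in 38 beside the 15.8% of all genes. Their median log2 fold change was -0.01. Among 11 TRAF adaptors and TRAF-bound regulators, BIRC2 rose and MAP3K14 and TRAF3 fell. MAP3K14 is the kinase NIK of the noncanonical NF-kappaB pathway, and TRAF3 and BIRC2 belong to the complex that has NIK degraded in resting cells. MAP3K14 was at 18.9, 19.4 and 19.2 CPM in shControl and 13.7, 14.6 and 15.0 CPM in shSTBD1, far apart, with a log2 fold change of -0.41 (SE 0.069, edgeR adjusted p = 0.000811). TRAF3 went from 113 to 96.7 CPM (-0.23, edgeR adjusted p = 0.000396) and BIRC2 from 63.1 to 75.7 CPM (0.26, edgeR adjusted p = 0.00308). TRAF3 and BIRC2, of the same complex, thus moved in opposite directions.

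Among the 10 death domain adaptors, kinases and caspases, 8 were tested, of which CASP10 and TRADD rose and CFLAR and RIPK1 fell. CASP10 is an initiator caspase of the death receptors and CFLAR its catalytically inactive relative, which restrains them. CASP10 was at 3.69, 3.78 and 3.33 CPM in shControl and 6.23, 5.33 and 5.80 CPM in shSTBD1, without overlap and with a log2 fold change of 0.68 (SE 0.14, edgeR adjusted p = 0.00337). CFLAR was at 37.7, 35.7 and 35.7 CPM and 28.8, 29.4 and 34.1 CPM, with shSTBD1 3 nearest to shControl (-0.24, edgeR adjusted p = 0.0165). Without shSTBD1 1 or 2 the adjusted p of CFLAR was 0.0847 and 0.0974. TRADD and RIPK1 are the first proteins at the TNFRSF1A death domain. TRADD had a log2 fold change of 0.30 (edgeR adjusted p = 0.022) and RIPK1 one of -0.23 (edgeR adjusted p = 0.0058). The adjusted p of TRADD was 0.0631 with DESeq2, and 0.0677, 0.0638, 0.091 and 0.073 without shControl 1, shControl 3, shSTBD1 2 or shSTBD1 3.

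In the list of linear ubiquitin and its removal, all 10 genes were tested. TAX1BP1, an adaptor of the deubiquitinase A20, rose by 0.16 (edgeR adjusted p = 0.0101), and SPATA2, which brings CYLD to the receptor complex, fell by 0.25 on the log2 scale (edgeR adjusted p = 0.0379). The adjusted p of TAX1BP1 was 0.06 without shSTBD1 1. That of SPATA2 was 0.1 with DESeq2 and 0.0514 with library size alone, and 0.0692, 0.105, 0.0898 and 0.179 without shControl 1, shControl 3, shSTBD1 1 or shSTBD1 2. Of the 7 genes of the TAK1 and IKK kinase complexes 0 passed with edgeR, DESeq2 or limma. An unadjusted edgeR p under 0.05 was found in 0 of the 7, beside 4677 of all 15566 genes tested. IKBKG, the scaffold NEMO, had the largest value there, 0.15 (edgeR adjusted p = 0.173), with a posterior standard deviation of 2.65% of its count. Of the 2 ligand sheddases 0 passed with edgeR, DESeq2 or limma. Here 1 of the 2 had an unadjusted edgeR p under 0.05, beside the same 4677 of 15566 genes. ADAM17, which releases TNF, had a log2 fold change of -0.13 (edgeR adjusted p = 0.14). Of the 9 calls in these lists, 1 remained with offsets for effective length, that of BIRC2, and 0 with limma on log2(TPM + 1).

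**Figure D5:**
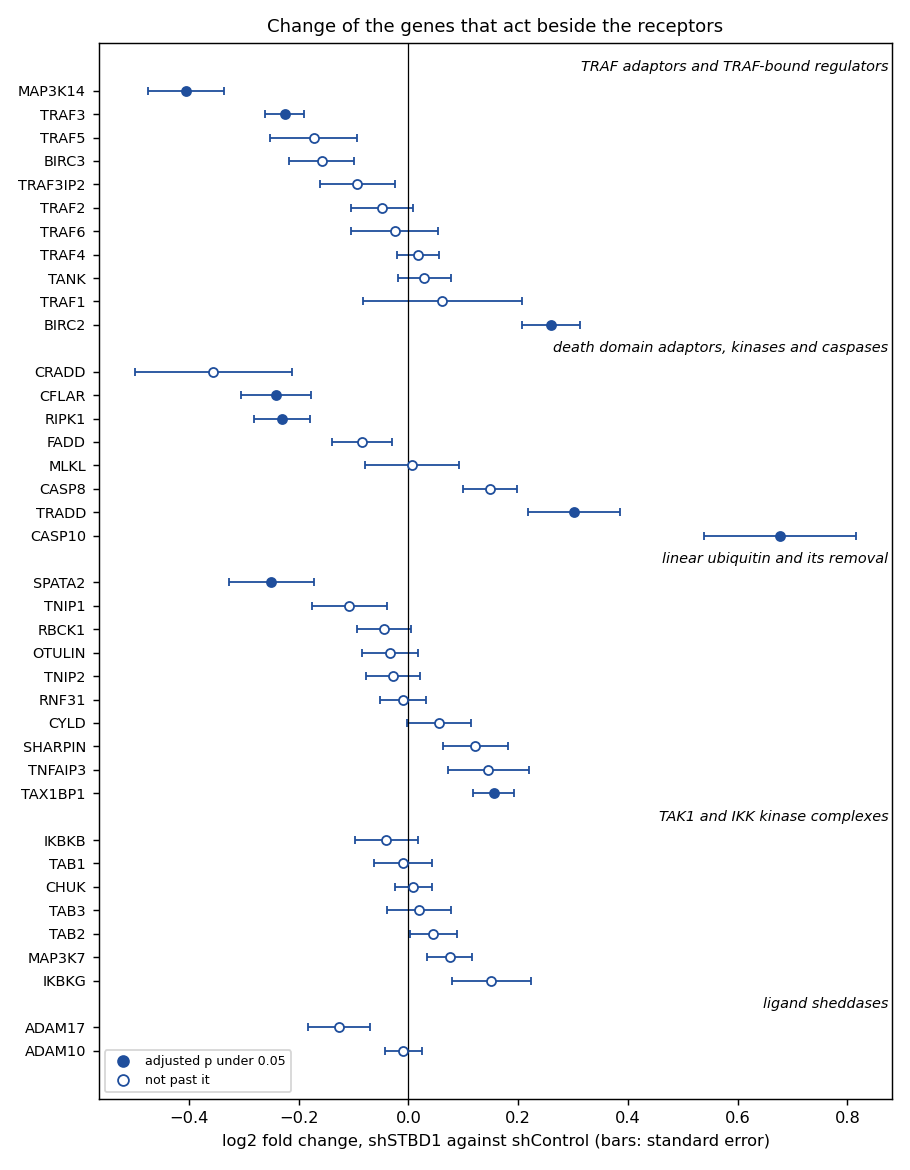
Log2 fold change of shSTBD1 against shControl for the 38 tested genes that act next to the receptors, in 5 lists, with bars of 1 standard error and filled points at an adjusted p under 0.05. The points run from MAP3K14 at -0.41 to CASP10 at 0.68, and no point of the TAK1 and IKK complexes or of the sheddases is filled.

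Markers of other cells were low, apart from COL1A1. The summed level of the 10 leukocyte markers was 2.07 to 2.72 TPM in shControl and 1.11 to 2.12 TPM in shSTBD1. That of 8 fibroblast and endothelial markers was 15.0 to 20.04 TPM in shControl and 17.3 to 21.2 TPM in shSTBD1, nearly all of it COL1A1 with a mean of 17.8 TPM. Of the 8 epithelial markers 6 were tested and 4 rose in shSTBD1, while 8.22% of all genes tested were called higher. The 4 were KRT8, KRT18, KRT19 and CDH1, which rose by 0.20 to 0.29 on the log2 scale. The part of these in the members' values was not tested.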

How the data were processed

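RNA of 3 shControl and 3 shSTBD1 cultures of HCT116 was sequenced, and samples were grouped by their titles. Per the submitters' processing notes and the methods, the authors discarded low-quality, poly-N and adapter reads, used STAR 2.7.1a for alignment to Hg38 (gene models of Ensembl release 93) and RSEM 1.3.1 for abundance. The authors deposited an expected count per gene, not normalized, and TPM, which the authors computed per length of transcript. The deposited tables also hold other values, effective lengths and, for every count, its posterior standard deviation. Whether counting used strand is not given in the sources used here, so genes that overlap on opposite strands cannot be told apart. Reads carry no molecular identifiers.

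The files list 58395 genes, of which 57754 matched a symbol and a position in GENCODE release 44, a later annotation than the authors' on the same GRCh38 build. A further 4 genes matching the symbol pattern are not protein-coding and were left out. Expected counts were rounded, filtered with edgeR's filterByExpr, scaled by TMM (factors 0.979 to 1.009) and tested in edgeR 4.0.16 (R 4.3.3), by the quasi-likelihood F-test with no replicate term. P-values are two-sided and adjusted by the Benjamini-Hochberg method over 15566 genes. SE is the log2 fold change divided by the root of F. The common biological coefficient of variation was 3.37%. Counts were simulated from the means and totals of these libraries (15376 genes), with few genes changed and the same coefficient of variation for every gene. There edgeR recovered 81% of genes changed by 0.5 and 96.9% of those changed by 1 on the log2 scale. Of its calls, 6.91% were unchanged genes. No simulated library stood apart as shControl 1 did, so these rates need not hold for the real libraries.

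The genes named are STBD1, each member with a mean of at least 0.5 TPM or an adjusted p under 0.05, relatives with other symbols at 0.5 TPM, signalling genes with an adjusted p under 0.05 or the largest change of their list, and marker genes. The members and lists were chosen with earlier results of these data known. Alternatives were DESeq2 1.42.0, limma 3.58.1 on log2(TPM + 1) and log2(TPM + 0.1), other scalings and filters, unrounded counts, offsets for effective length, a replicate block and leaving out each library. Summing the read-through genes was added after seeing the data.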

Additional observations from a re-analysis of the deposited data

How the results depend on the processing

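Of 32 genes with a test in up to 16 alternatives (17 for TNFRSF6B and TNFSF12, with the summed read-through genes), 431 of 511 values kept direction and side of the threshold, 65 lost and 4 gained the call and 11 turned direction. Of those that turned, TNFRSF10A was at -0.00032 with DESeq2, -0.00036 with median-of-ratios factors, -0.11 and -0.12 by limma on log2(TPM + 1) and log2(TPM + 0.1), -0.11 under effective-length offsets, and -0.020 to 0.025 when a library was left out. When a library was left out, TNFRSF13C ran from -0.35 to 0.012, TNFRSF18 from -0.085 to 0.037 and EDA from -0.070 to 0.12. STBD1 lost its call with limma, at -0.54 and -0.65. Members called higher numbered 1 in the edgeR test, 0 with DESeq2, limma (both pseudocounts) and effective-length offsets, 2 without a filter and 0 to 1 when a library was left out, and members called lower 3, 5 without a filter, 1 in both limma fits and 3 to 4 when a library was left out. The relative called lower, LTBR, was 0 of 6 with DESeq2, library size alone, no filter, limma (both), effective-length offsets and the replicate block, and 0 to 1 without a library, as were relatives called higher. Signalling genes called were 1 higher and 0 lower with effective-length offsets, 0 and 0 in both limma fits, and 3 to 6 lower without a library. All genes called went from 1280 higher and 1173 lower to 288 and 224 with effective-length offsets, to 178 and 114 by limma on log2(TPM + 1), to 176 and 114 on log2(TPM + 0.1), and to between 785 and 1333 higher and between 624 and 1244 lower without a library. The cause was not tested.

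The labels do not say whether replicate numbers pair libraries between the groups. The deviations of same-numbered libraries correlated by 0.071, 0.068 and -0.0084. Numbers 1 and 2 correlated best with themselves and number 3 did not. So few libraries cannot decide whether they were paired. With the replicate block 2579 genes were called in place of 2453, and 1 member higher and 3 lower. Under each other scaling the median of all genes was at most 0.013 in size. With 17 expressed members at 0.5 TPM, 22 were at 0.1 TPM and 16 at 1 TPM. Depth limits the low members, of which TNFSF4 and TNFSF18 passed only without the filter on low counts or, for TNFSF4, without shControl 1. For TNFRSF10C, TNFRSF19, TNFSF13, TNFSF12-TNFSF13, TNFSF4 and TNFRSF1B, DESeq2 gave no adjusted p.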
